A study of Rattus norvegicus with 23 samples.

Results

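The genes described here are the C-type lectin receptors and the receptors for the Fc part of immunoglobulin G, with the adaptors and kinase through which many of them signal, in the lungs of elderly rats that inhaled a titanium dioxide (TiO2) nano-aerosol. Members were taken by gene name: every array gene named Clec followed by a number, every gene named Fcgr followed by a number, and Fcer1g, Fcgrt, Syk, Card9 and Cd209a. The name alone decided membership, so it does not show that each Clec gene is a cell-surface lectin. The rule found 42 genes on 59 probes, of which 38 had signal above background and were tested among 23032 genes. The 4 that did not, Clec11a, Clec3a, Clec2h and Cd209a, were well above background on no array, and no spot carried the name Cd209b.

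Male F344 rats, aged 19 months at the start, breathed either filtered air or the TiO2 aerosol at 10 mg/m3 through the nose, on 5 days of each week over 4 weeks and for 6 h each time. The accessory lung lobe was taken on the last day of exposure (D0) or 28 days later (D28), and its total RNA was hybridised to 1 single-colour 60-mer array per rat. There were 6 controls and 5 exposed rats at D0, and 6 controls and 6 exposed rats at D28, each day having its own controls. No gene was altered in any group, and nothing but the aerosol, the day and the age gained by D28 separates the groups on the labels. For the 6 exposed D28 rats 1 label field reads day 0, whereas title and description give 28, which was used. Lung identity was checked on 5 type II pneumocyte markers, all well above background on every array. Between 69.5% and 77.9% of spots were well above background on each array, the lowest being exposed D0 rat 4.

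C-type lectins are cell-surface proteins with a shared carbohydrate-recognition fold, many of them on macrophages, dendritic cells and neutrophils, where they sense fungal and bacterial sugars, dead cells or the body's own glycans. The activating ones recruit the kinase Syk, either through a motif of their own or through an adaptor such as Fcer1g, and several then pass the signal to Card9. The inhibitory ones carry a motif that recruits phosphatases. Fc gamma receptors bind antibody-coated particles and use the same Syk pathway, with Fcgr2b as the inhibitory member. In the lung these receptors are known mainly from alveolar macrophages and dendritic cells.

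The findings turn on 4 neighbouring or related genes, whose probes are shown first because each value below is the signal of these 60 bases. Positions are those of the array annotation on rat build rn4. Clec9a has 2 probes, at chr4:166695013-166695072 and chr4:166698489-166698548, plus strand.
Clec9a probe 1: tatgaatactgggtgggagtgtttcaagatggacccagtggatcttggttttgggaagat
Clec9a probe 2: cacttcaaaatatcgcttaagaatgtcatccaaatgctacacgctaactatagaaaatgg
Clec1b has 2 probes, at chr4:166679434-166679493 and chr4:166679508-166679567, plus strand.
Clec1b probe 1: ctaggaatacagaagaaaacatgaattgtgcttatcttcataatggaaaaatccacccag
Clec1b probe 2: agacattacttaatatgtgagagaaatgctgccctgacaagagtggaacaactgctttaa
Clec1a has 1 probe, at chr4:166700747-166700806, minus strand.
Clec1a probe: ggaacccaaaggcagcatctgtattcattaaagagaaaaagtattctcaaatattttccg
Clec4a has 2 probes annotated to the same place, chr4:159709889-159709948, plus strand, with the 3 bases at which they differ in capitals.
Clec4a probe 1: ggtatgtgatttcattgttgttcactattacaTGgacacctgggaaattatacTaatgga
Clec4a probe 2: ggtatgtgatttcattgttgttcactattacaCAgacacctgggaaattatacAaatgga
No probe of another gene on the array shares a run of 20 bases with any of these.

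At D0, 2 of the 38 members were DEGs (adjusted p under 0.05 and FC of at least 1.5 in either direction), against 1.78% of all genes: Clec9a was over-expressed and Clec1b under-expressed in exposed rats. A further member, Clec1a, passed the adjusted p but not the FC limit, so that 3 of 38 passed the p alone, against 2.86% of all genes. At D28 Clec4a was the only DEG among the 38, against 0.755% of all genes, and the only one to pass the adjusted p alone, against 1.32%. At an unadjusted p under 0.05 there were 12 of 38 at D0, 7 higher and 5 lower, against 11.9% of all genes, and 8 of 38 at D28, 6 higher and 2 lower, against 11%. The median log2 FC of the 38 was 0.09 at D0 and 0.10 at D28, with the median of all genes at -0.00075 and -0.0056. Of the 38, 26 at D0 and 24 at D28 had a log2 FC above 0, against 49.9% and 48.8% of all genes. All signals are on the log2 scale after quantile normalisation, and each FC is exposed over the controls of the same day.

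**Figure D1:**
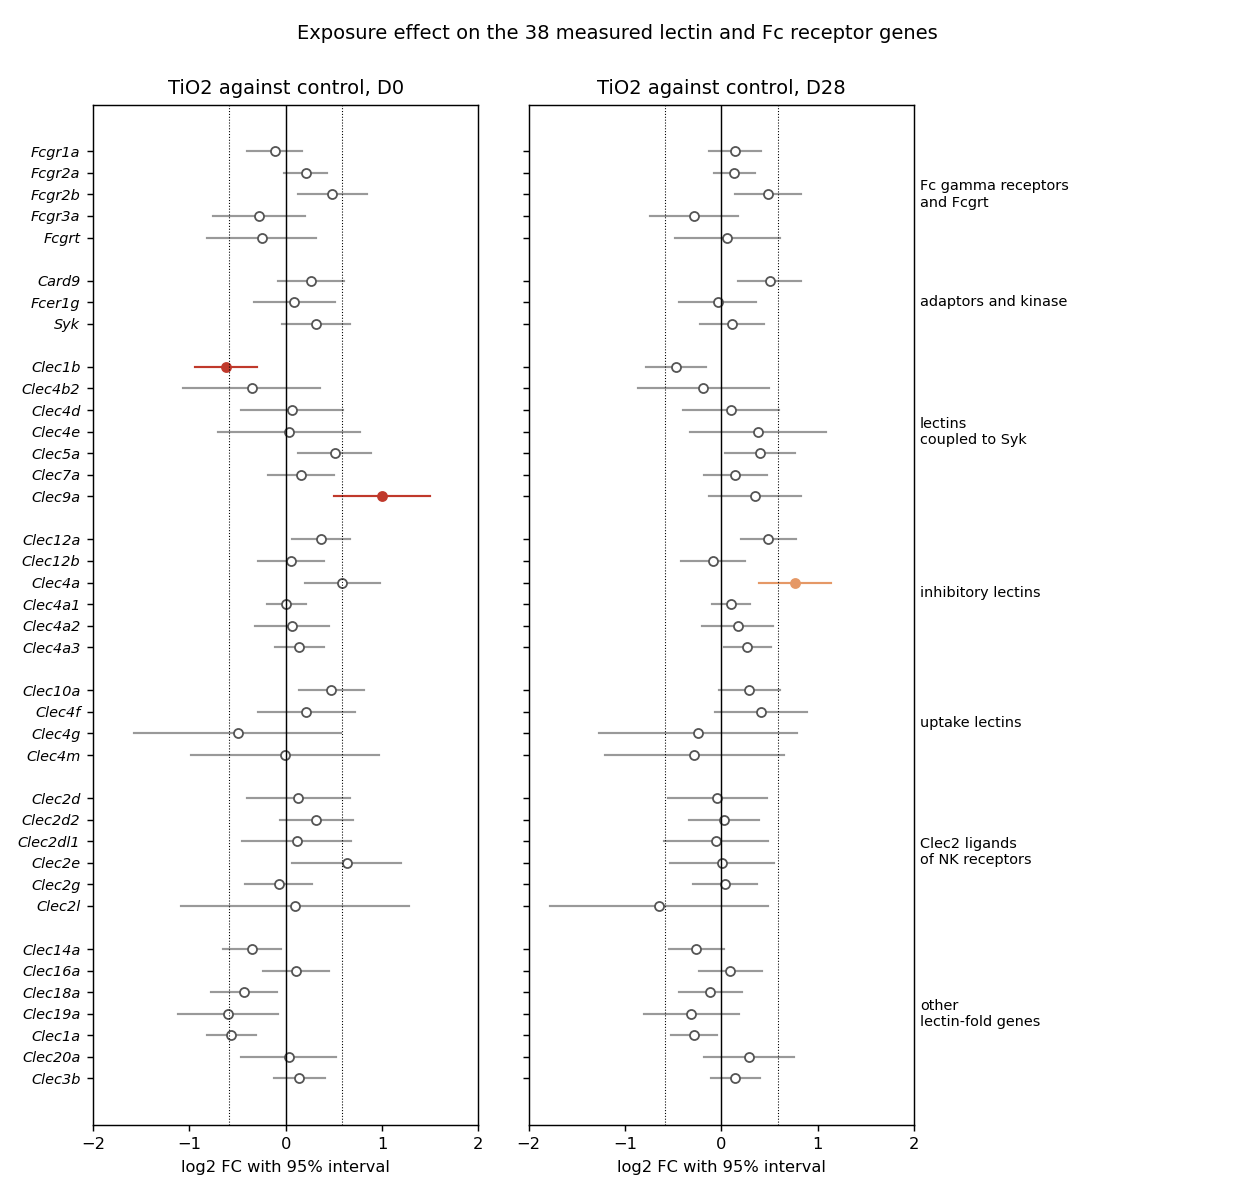
The log2 FC of exposed against control rats is drawn for the 38 measured members, grouped by role, at D0 (left, 5 against 6 rats) and D28 (right, 6 against 6), with bars for the 95% intervals, dotted lines at the FC limit of 1.5 and filled points for DEGs. Clec9a and Clec1b are filled at D0 and Clec4a at D28; the intervals of Clec2e, Clec2l, Clec4g and Clec4m come from dim probes.

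Clec9a, a dendritic cell receptor that binds actin filaments exposed by dead cells, rose 2.00-fold at D0. Its signal in the 5 exposed rats was 5.84, 5.68, 5.65, 6.51 and 4.95, and in the 6 controls it ran from 4.13 over a median of 4.79 to 5.29. One exposed rat lay within the control range and the other 4 above it. The log2 FC was 1.00 ± 0.24 (SE; limma adjusted p = 0.024). Within the 4 slides that held both groups it was 0.53 to 1.92, higher in exposed rats on each. Probe 1 was well above background on 0 of 6 control and 3 of 5 exposed arrays, so the better measure is probe 2, which was above background on every array and gave a log2 FC of 0.85. The call was lost without control 1 (log2 FC 0.88), control 6 (0.91), exposed rat 1 (0.97) or exposed rat 4 (0.81). Under 3 other readings of background the adjusted p stayed under 0.05 but the log2 FC was 0.37 with normexp correction and 0.48 both from uncorrected medians and from the deposited table, under the FC limit. With the arrays of D0 alone in the fit the adjusted p was 0.0946.

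At D28 Clec9a ran from 5.31 over a median of 5.79 to 6.10 in exposed rats and from 4.89 over 5.49 to 5.72 in controls. The groups overlapped, and the log2 FC of 0.35 ± 0.23 did not pass (adjusted p = 0.66). Probe 2 alone gave 0.59 and the dim probe 1 gave 0.10. Controls at D28 read 0.66 higher on the log2 scale than controls at D0 (adjusted p = 0.21), mostly through probe 1, whose mean was 2.57 in D0 and 3.71 in D28 controls, with 0 of 6 and 1 of 6 arrays well above background; the means of probe 2 were 6.88 and 7.05. Averaged over both probes, the D28 effect was 0.65 below the D0 effect, with a 95% interval of the difference from -1.35 to 0.04, and this did not pass either (adjusted p = 0.9999). The gap was smaller on probe 2, with 0.85 at D0 and 0.59 at D28, than on probe 1, with 1.15 and 0.10.

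Clec1b, the platelet receptor for podoplanin, was 1.54-fold lower at D0. The 5 exposed rats gave 8.45, 8.91, 8.87, 7.95 and 8.52, whereas the 6 controls ran from 8.95 over a median of 9.17 to 9.32. Every exposed rat lay below every control; such a gap in either direction was seen in 6 of the 38 members and 4.31% of all genes at D0. The log2 FC was -0.62 ± 0.16 (adjusted p = 0.032), the 2 probes gave -0.66 and -0.58, and exposed rats were lower on each of 4 slides. The call was lost when any of control 2, 4, 5 or 6 or exposed rat 1, 4 or 5 was left out (log2 FC -0.63 to -0.47, adjusted p 0.0509 to 0.103). It also fell under the FC limit with normexp correction (-0.53), from uncorrected medians (-0.56) and from the deposited table (-0.58), as well as with array quality weights (-0.48) and on the brighter probe alone (-0.58). With the arrays of D0 alone the adjusted p was 0.0794. At D28 the log2 FC was -0.47 ± 0.15 (adjusted p = 0.14), with exposed rats from 8.29 over 8.77 to 9.05 and controls from 8.97 over 9.22 to 9.36.

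Clec1a, a lectin of endothelium and myeloid cells known to sense fungal melanin, showed the same direction with little spread among controls. At D0 the exposed rats gave 9.22, 9.46, 9.59, 9.19 and 9.27, and the controls ran from 9.86 over 9.91 to 9.96. The groups were apart, with a log2 FC of -0.56 ± 0.12 (adjusted p = 0.011) that was 1.48-fold lower and so just under the FC limit. At D28 the exposed rats ran from 9.45 over 9.57 to 9.97 and the controls from 9.54 over 10.03 to 10.21; they overlapped, and the log2 FC of -0.28 ± 0.12 did not pass (adjusted p = 0.33).

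**Figure D2:**
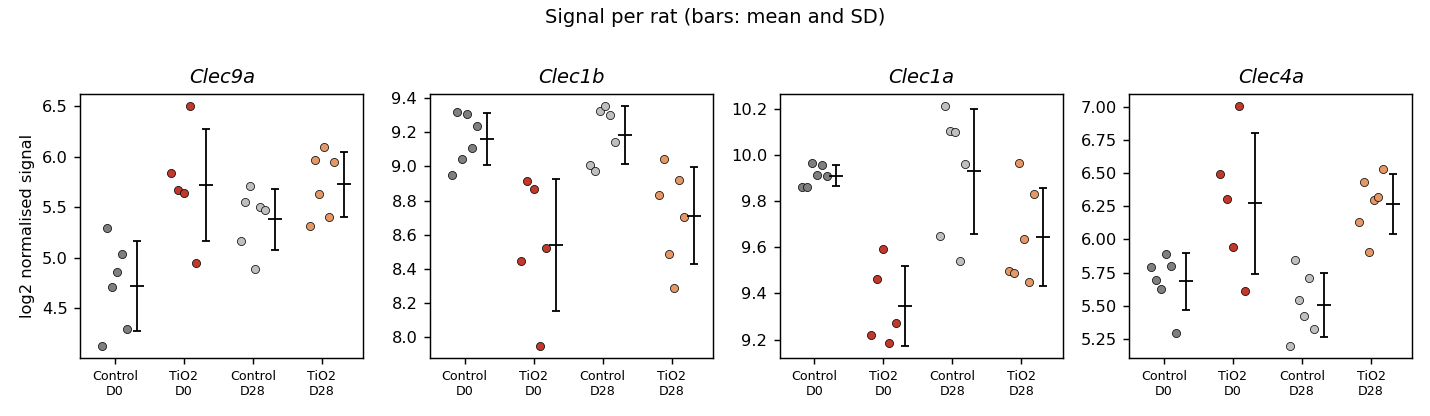
Each point is the log2 normalised signal of 1 rat for Clec9a, Clec1b, Clec1a and Clec4a, with bars for the mean and SD of each group. At D0 the exposed rats lie below every control for Clec1b and Clec1a, and at D28 they lie above every control for Clec4a.

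These 3 genes lie beside each other. Counted from the probe of Clec12b on chromosome 4, Clec1b starts at 28.1 kb, Clec9a at 43.7 kb, Clec1a at 49.4 kb and Clec7a at 72.3 kb (rn4). Clec9a thus rose at D0 between neighbours of which one fell and the other passed the p alone in the same direction, while Clec12b (0.05) and Clec7a (0.16) on either side were no DEGs. Their promoters are given for the DEG pair, 250 bases before and 50 after the RefSeq start on build GRCr8 as RefSeq lists them, with any AGATAA motif (GATA factors) in capitals. The Clec1b window is chr4:164533859-164534158 and the Clec9a window chr4:164546073-164546372, both plus strand.
Clec1b promoter: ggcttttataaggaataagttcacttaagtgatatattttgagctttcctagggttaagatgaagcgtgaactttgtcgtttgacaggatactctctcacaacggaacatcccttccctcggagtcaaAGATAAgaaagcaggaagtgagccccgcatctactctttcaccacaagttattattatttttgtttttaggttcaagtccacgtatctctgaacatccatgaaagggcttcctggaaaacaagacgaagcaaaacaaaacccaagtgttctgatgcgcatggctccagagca
Clec9a promoter: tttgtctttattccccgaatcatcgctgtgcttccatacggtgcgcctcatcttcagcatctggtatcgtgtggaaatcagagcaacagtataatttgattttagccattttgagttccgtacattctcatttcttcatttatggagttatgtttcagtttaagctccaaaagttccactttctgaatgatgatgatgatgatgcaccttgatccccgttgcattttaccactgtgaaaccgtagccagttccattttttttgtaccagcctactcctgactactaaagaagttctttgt
AGATAA on either strand is in 11.3% of 27457 promoters and in 7 of the 33 members with one in the table, Clec1b among them. The Clec9a window holds neither it nor GAGGAA. A match is a run of letters, not a bound site.

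**Figure D3:**
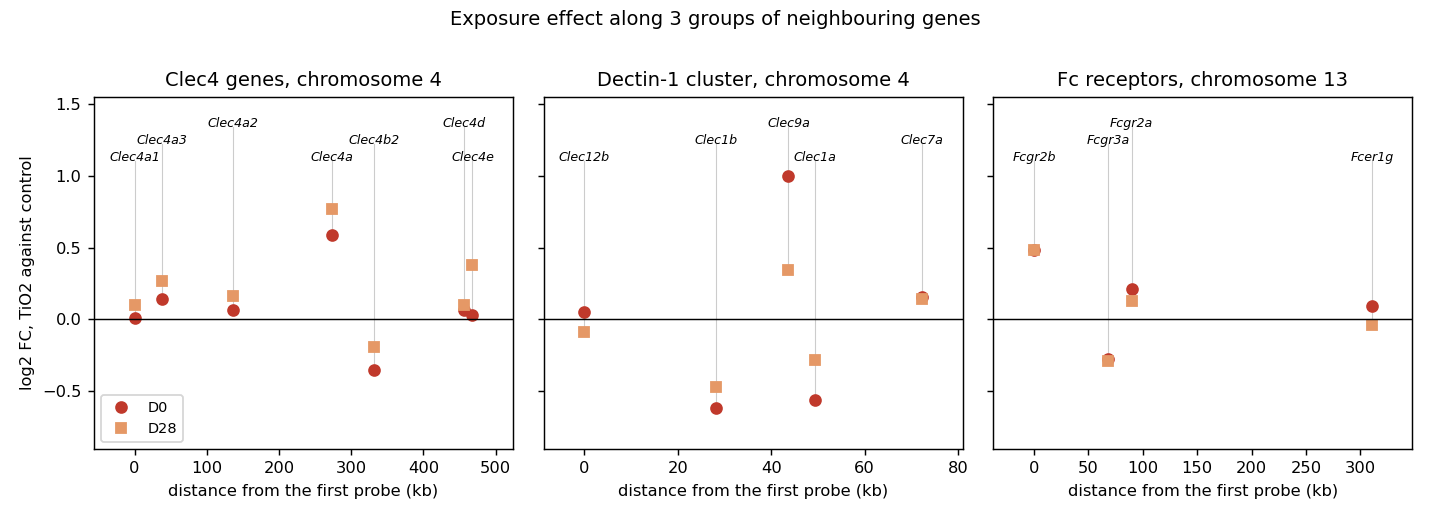
The log2 FC at D0 (circles) and D28 (squares) is drawn against distance in kb from the first probe for the Clec4 genes and the Clec7a (Dectin-1) neighbourhood on chromosome 4 and the Fc receptors on chromosome 13. Clec9a stands at 1.00 at D0 between Clec1b at -0.62 and Clec1a at -0.56, and Clec4a is the highest of the 7 Clec4 genes drawn on both days.

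Clec4a, a lectin with an inhibitory motif on myeloid cells, was a DEG at D28. Exposed rats ran from 5.90 over a median of 6.31 to 6.53, and controls from 5.20 over 5.48 to 5.84. All exposed rats lay above all controls, which held for 1 of the 38 members and 1.22% of all genes in either direction. The log2 FC was 0.76 ± 0.18 (1.70-fold; adjusted p = 0.037), with 0.82 and 0.71 from the 2 probes, and 0.66 to 1.12 within 3 slides. The call was lost without any one of controls 1, 3, 4, 5 or 6 or exposed rats 1, 2, 4, 5 or 6 (log2 FC 0.70 to 0.81, adjusted p 0.05 to 0.0859). It was also lost under normexp, where the log2 FC was 0.35, from uncorrected medians (0.43) and from the deposited table (0.43). At D0 the exposed rats gave 6.49, 6.31, 5.94, 7.01 and 5.61 against controls from 5.29 over 5.74 to 5.89; 1 exposed rat overlapped, and the log2 FC of 0.59 ± 0.19 did not pass (adjusted p = 0.11). It was a DEG at D0 too with 75th percentile scaling (0.64, adjusted p = 0.0332) and without exposed rat 5 (0.76, adjusted p = 0.0259). The difference between the days was 0.18, with an interval from -0.37 to 0.72.

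Its promoter window is chr4:158100365-158100664, plus strand, GRCr8, from RefSeq, with the single GAGGAA (core of the myeloid factor PU.1 and other ETS factors) in capitals.
Clec4a promoter: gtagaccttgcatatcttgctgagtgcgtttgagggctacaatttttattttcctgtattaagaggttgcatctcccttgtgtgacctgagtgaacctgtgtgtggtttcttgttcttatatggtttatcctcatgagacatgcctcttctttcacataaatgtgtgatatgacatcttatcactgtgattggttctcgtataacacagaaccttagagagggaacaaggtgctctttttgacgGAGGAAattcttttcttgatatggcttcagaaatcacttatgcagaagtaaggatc
GAGGAA on either strand is in 27.5% of all promoters and in 15 of the 33 member promoters, including those of Clec4a1, Clec4a3, Clec4b2, Clec4d and Clec4e.
The other lectins grouped here as inhibitory, Clec4a1, Clec4a2, Clec4a3, Clec12a and Clec12b, were no DEGs on either day. Whether each of them carries the inhibitory motif in the rat was not checked. Clec12a, which recognises uric acid crystals, came nearest at D28 with a log2 FC of 0.49 ± 0.14 (adjusted p = 0.096). Its lowest D28 control was number 6 (7.47). Over all 6 lectins of this group, Clec4a included, the median was 0.10 at D0 and 0.22 at D28.

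Of the 7 lectins coupled to Syk, Clec9a and Clec1b moved as above and the other 5 were DEGs on neither day. Clec7a (Dectin-1), the receptor for fungal beta-glucan, was well above background in every rat. At D0 its signal ran from 10.88 to 11.66 in the 5 exposed rats, 3 of them within the range of the controls, which was 10.86 over a median of 10.94 to 11.26. The groups overlapped, and the log2 FC was 0.16 at D0 (95% interval -0.19 to 0.50) and 0.14 at D28 (-0.18 to 0.47), where exposed rats ran from 10.86 over 11.20 to 11.38 and controls from 10.38 over 11.02 to 11.46. Clec4e (Mincle), which binds mycobacterial glycolipid and a protein released by dead cells, was dim and scattered. It was well above background in 6 of 6, 4 of 5, 5 of 6 and 5 of 6 rats, in the order D0 controls, D0 exposed, D28 controls and D28 exposed. At D0 it gave 5.86, 5.68, 5.53, 3.71 and 5.17 in exposed rats and 4.61 over 4.96 to 5.92 in controls. The log2 FC was 0.03 at D0 (interval -0.71 to 0.77), of no settled sign, and 0.38 at D28 (-0.32 to 1.09), where exposed rats ran from 4.38 over 4.68 to 5.56 and controls from 3.37 over 4.56 to 4.97. The D28 value was 0.17 without control 6 and 0.08 to 0.39 over the other ways of processing. Both intervals include a change of the size of the FC limit.
Clec5a, a receptor coupled to the adaptor Tyrobp on monocytes and neutrophils, lay above every control at D0, with 7.18, 6.87, 6.70, 6.98 and 6.69 against controls from 6.01 over 6.40 to 6.56. Its log2 FC of 0.51 ± 0.18 did not pass over all genes (adjusted p = 0.18), and at D28 it was 0.40 (adjusted p = 0.37), with exposed rats from 6.70 over 6.91 to 7.18 and controls from 5.65 over 6.61 to 6.96. Clec4d and Clec4b2 had log2 FCs of 0.07 and -0.35 at D0.

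The adaptor Fcer1g, the kinase Syk and Card9, which links Syk to NF-kappaB, were DEGs on neither day. Fcer1g gave 14.61, 14.43, 14.02, 14.68 and 14.10 in exposed rats at D0 and 14.11 over 14.23 to 14.49 in controls, with a log2 FC of 0.09 ± 0.20, and -0.04 ± 0.19 at D28, where exposed rats ran from 13.68 over 14.17 to 14.57 and controls from 13.25 over 14.20 to 14.62. Syk gave 7.67, 7.27, 7.68, 7.88 and 7.47 against controls from 7.15 over 7.24 to 7.55, with a log2 FC of 0.32 ± 0.17 (adjusted p = 0.51). Syk overlapped between groups through 1 high control and 2 lower exposed rats. At D28 it ran from 7.05 over 7.48 to 7.78 in exposed rats and from 6.87 over 7.19 to 7.83 in controls, with a log2 FC of 0.11. Card9 gave 7.95, 7.97, 7.78, 8.29 and 7.85 in exposed rats at D0 and 7.35 over 7.71 to 7.98 in controls, which overlapped. Its log2 FC was 0.26 ± 0.17 at D0 and 0.50 ± 0.16 at D28 (adjusted p = 0.65 and 0.14), where exposed rats ran from 7.70 over 7.93 to 8.24 and controls from 6.71 over 7.58 to 7.83. The sixth D28 control was the lowest of its group for Fcer1g (13.25), Card9 (6.71), Clec5a (5.65) and Clec4e (3.37). It was also the lowest for other members, such as Clec12a (7.47), and the highest for some, such as Clec2d (8.36). Without it the log2 FC of Card9 at D28 was 0.36 and that of Clec5a 0.22.

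**Figure D4:**
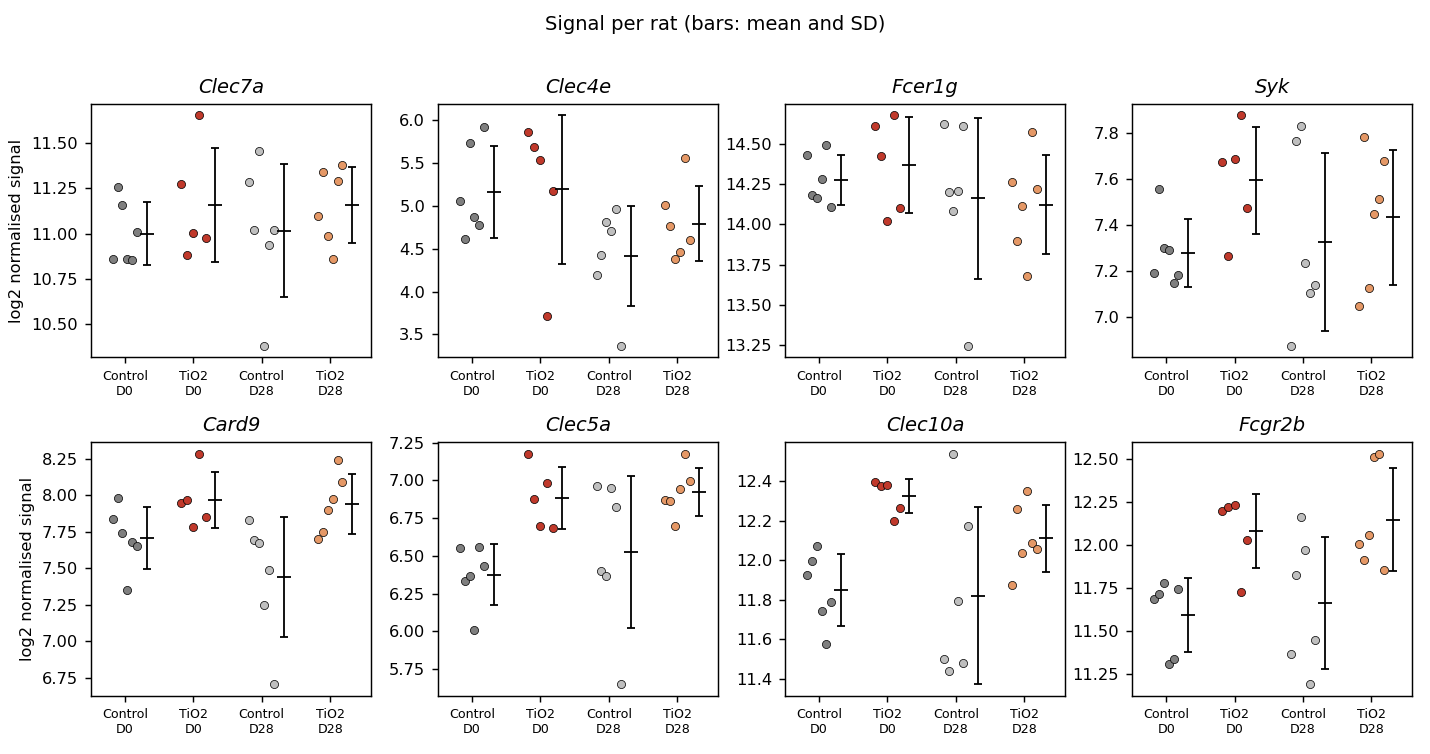
Each point is the log2 normalised signal of 1 rat for Clec7a, Clec4e, Fcer1g, Syk, Card9, Clec5a, Clec10a and Fcgr2b, with bars for the mean and SD of each group. Clec5a and Clec10a are apart at D0, and the other 6 overlap on both days.

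None of the 4 Fc gamma receptors and Fcgrt, the receptor that recycles immunoglobulin G, was a DEG. The nearest was the inhibitory Fcgr2b, with a log2 FC of 0.49 ± 0.17 at D0 and 0.48 ± 0.17 at D28 (adjusted p = 0.18 and 0.19). The activating Fcgr1a, Fcgr2a and Fcgr3a had log2 FCs of -0.11, 0.21 and -0.28 at D0 and 0.14, 0.13 and -0.29 at D28. Fcgr2b, Fcgr3a and Fcgr2a, within 89.8 kb of chromosome 13, thus showed both signs on both days.

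Among 4 measured uptake lectins, Clec10a, the macrophage lectin for galactose-type sugars, lay above every control at D0. Exposed rats gave 12.40, 12.37, 12.38, 12.20 and 12.27, and controls ran from 11.58 over 11.86 to 12.07. The log2 FC of 0.48 ± 0.16 did not pass (adjusted p = 0.14), and at D28 it was 0.29, with exposed rats from 11.88 over 12.07 to 12.35 and controls from 11.44 over 11.65 to 12.54. Clec4f, Clec4g and Clec4m were no DEGs, the last 2 being well above background on few arrays. The 6 measured Clec2 genes, ligands or relatives of ligands of NK cell receptors, held no DEG, and Clec2d, Clec2e and Clec2g had probes of opposite sign on at least 1 day, as had Clec16a and Syk.
Of the 7 other measured genes named Clec, Clec18a and Clec19a lay below every control at D0. Clec18a gave 7.65, 7.44, 7.47, 7.80 and 7.59 in exposed rats and from 7.85 to 8.29 in controls, with a log2 FC of -0.43 ± 0.17 (adjusted p = 0.22). Clec19a gave 6.49, 6.79, 6.83, 6.25 and 6.66 against 6.90 over 7.23 to 7.36, with a log2 FC of -0.60 ± 0.25 (adjusted p = 0.29), which passed with the arrays of D0 alone in the fit (adjusted p = 0.0304). At D28 the groups overlapped, with Clec18a from 6.97 to 8.06 in exposed rats and 7.20 to 8.06 in controls (log2 FC -0.12) and Clec19a from 5.62 to 7.02 and 6.33 to 7.53 (-0.32). Clec14a, an endothelial lectin, had -0.35 and -0.26 (adjusted p = 0.27 and 0.52). Clec3b, Clec16a and Clec20a were no DEGs.

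No member was a DEG for the difference between the exposure effects of D28 and D0 (0 of 38, against 0.0304% of all genes; 0 at an unadjusted p under 0.05, against 3.44%). Between controls of D28 and D0 there was again none (0 of 38, against 0.608% of all genes; 7 at an unadjusted p under 0.05, against 13.3%). The sign of the log2 FC was the same at D0 and D28 in 30 of 38 members and in 63% of all genes.

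Lists of the wider pathway give the setting. Of 19 kinases and adaptors of the Syk pathway and 11 of its inhibitors none was a DEG on either day, with medians of 0.11 and 0.11 at D0. The kinase pathway gene Vav1 at D28 (0.42, adjusted p = 0.047) and the inhibitor Dok3 at D0 (0.44, adjusted p = 0.045) passed the adjusted p alone. Among 10 other Fc receptors, Fcrl2 rose on both days (log2 FC 1.08, adjusted p = 0.0078 at D0; 1.18, adjusted p = 0.0065 at D28), and Fcrlb at D0 (0.90, adjusted p = 0.032). Among 14 other sugar-binding or Syk-coupled receptors, Siglec1, the sialic acid receptor of macrophages, rose at D0 (0.89, adjusted p = 0.0026). Lgals3 passed the adjusted p alone at D0 (0.30, adjusted p = 0.043). Of 14 genes that Syk and Card9 induce, Tnf was a DEG at D0 (1.06, adjusted p = 0.0089) and none at D28. Csf2 passed the adjusted p alone at D28 (0.47, adjusted p = 0.033), with exposed rats above every control. On each day 12 of 14 had a log2 FC above 0, not all of them the same genes, against the 49.9% and 48.8% given above. At D0 Il1b (0.01), Csf2 (0.01) and Egr3 (0.03) were barely above 0. Only 10 of 14 were well above background on all arrays. Il12b, the highest at D28 (1.03), was so on 3.

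Cells known to carry these receptors were followed by marker lists, since fewer cells of a type and less RNA per cell cannot be told apart in whole-lobe RNA. Of the macrophage markers, 1 of 11 (Siglec1) was a DEG at D0. Their mean signal at D0 ran from 8.66 to 8.94 in controls and 9.04 to 9.34 in exposed rats, without overlap. At D28 it overlapped. The D0 rise was not uniform: 9 of 11 markers had a log2 FC above 0, with a median of 0.30. The highest was Marco (1.04), well above background on only 2 arrays, followed by Siglec1 (0.89). Cd68 passed the adjusted p alone at D0 (0.55, adjusted p = 0.0029) and at D28 (0.42, adjusted p = 0.029). Csf1r (0.01), Pparg (-0.04) and Adgre1 (-0.25) did not rise. Whether the means stay apart without Marco or Siglec1 was not tested. Of 7 measured dendritic cell markers none was a DEG on either day (Xcr1 was not measured), with mean signals of 7.28 to 7.45 in D0 controls and 7.18 to 7.76 in exposed rats beside the rise of Clec9a. Of 4 measured platelet markers none was a DEG, with mean signals of 7.49 to 7.77 in D0 controls and 7.20 to 7.67 in exposed rats beside the fall of Clec1b. All 5 endothelial markers had log2 FCs below 0 on both days, none a DEG, with medians of -0.14 and -0.33 beside Clec1a. Of these, Tek passed the adjusted p alone at D28 (-0.46, adjusted p = 0.025). Of 9 measured neutrophil markers none was a DEG, with medians of -0.06 at D0 and -0.18 at D28. Their D0 log2 FCs ran from -0.80 (Fpr1) to 0.63 (S100a9), with 3 of 9 above 0. The part of these cell types in the results was not tested.

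**Figure D5:**
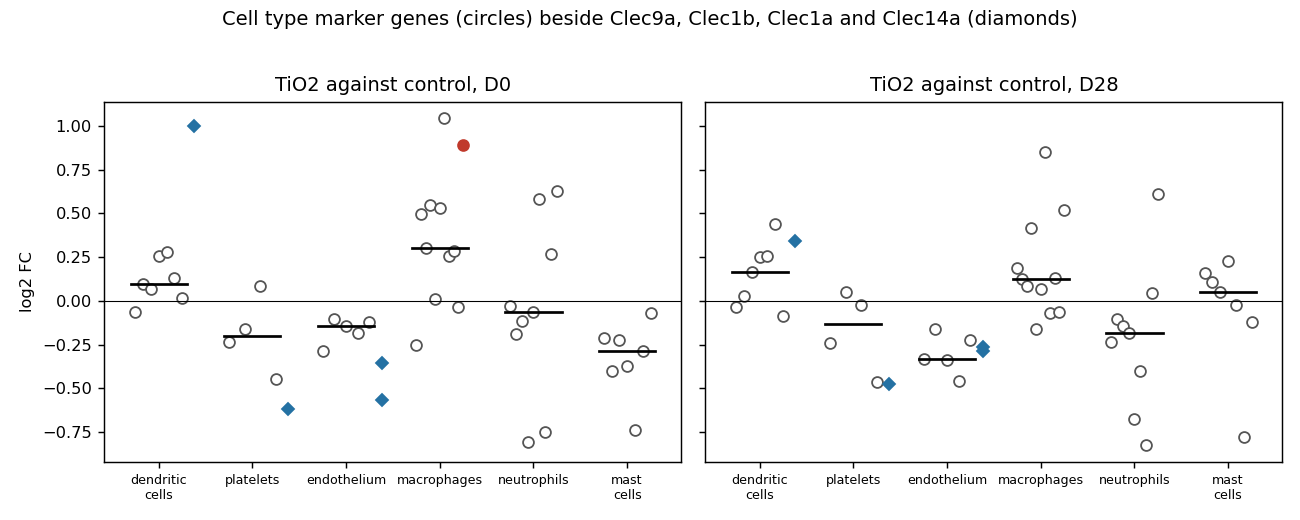
The log2 FC of each marker gene is drawn as a circle (filled for a DEG) with a line at the median of its list, at D0 (left) and D28 (right); blue diamonds are Clec9a beside dendritic cells, Clec1b beside platelets, and Clec1a and Clec14a beside endothelium. At D0 Clec9a lies above all 7 measured dendritic cell markers and Clec1b below all 4 platelet markers. They had the highest and lowest D0 log2 FC of the 38 members, so these gaps are no test of cell number.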

How the data were processed

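Total RNA of 23 lung lobes was hybridised by the authors to Agilent single-colour arrays and read with Agilent Feature Extraction 11.0.1.1 (22 arrays) or 12.0.1.1 (1 array), per the file headers. The deposited intensity used was the processed signal, already background-corrected; median-signal intensity and background were used for alternatives, and the deposited series table of intensity, which follows the median signal (lowest Spearman 0.99997), for another. Outlier-flagged spots were left out. Of 45598 probes, the 40421 that exceeded, on 5 or more arrays, the 95th percentile of that array's 308 negative controls were quantile-normalised, log2-transformed and averaged per gene (23032 genes). One mean per group was fitted with limma 3.58.1 in R 4.3.3, with Benjamini-Hochberg adjustment over all genes; a DEG has an adjusted p under 0.05 and FC of at least 1.5. The test was tried on simulated data with independent normal noise. These held no slide effect and no deviant array, so they do not show how the calls fare under either. Each p-value sets a group difference against the spread between arrays of the same group, 1 array per rat, and the number of arrays limits the precision.

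The members, roles and lists were chosen with earlier results of these data known. Values per rat, or their range, are given for each DEG among the members, for Clec7a, Clec4e, Fcer1g, Syk and Card9, and for members that passed the p alone or did not overlap between groups. Genes of the lists are named where they were DEGs or passed the p alone, and some others to show the spread of a list. The slide, each scanned on 1 day, was tried as a block, and replicate numbers as another. The groups were uneven over the slides: slide 2 held D28 control 4 alone, and slide 4 held no D28 control. Spots whose annotation gives no gene symbol were not used. Sequences are the array's probes on rn4 and RefSeq promoters on GRCr8, found for 33 of 42 members; protein sequences were not used here. Motifs were searched on both strands of 300 bases. Lists for B cells, T and NK cells, mast cells, neutrophils and fibroblasts were also counted; none held a DEG between exposed and control rats on either day.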

Additional observations from a re-analysis of the deposited data

Results flagged for a closer look

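One value stood apart from its group among the 13 members with values per rat, in 52 groups of 5 or 6 rats. Syk in D0 control 2 was 7.56 on the log2 scale, with the nearest of the other 5 controls at 7.30, a gap of 0.631 of the whole range of the group. Chance puts about 1 group in 20 past this limit.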

How the results depend on the processing

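The count of DEGs among the members was 2 at D0 and 1 at D28. It fell to 0 and 0 with normexp background correction, with the median signal without background correction and with the deposited table, each time because the log2 FC shrank under the limit or, for Clec4a in the last 2, also because the adjusted p passed 0.05. It was 1 and 0 with the probe of the highest mean signal and with array quality weights, where Clec9a was called at D0 and Clec1b was not. With only the arrays of the day it was also 1 and 0, but the 1 was Clec19a, and neither Clec9a nor Clec1b was called. With 75th percentile scaling it was 3 at D0, Clec9a, Clec1b and Clec4a. At an unadjusted p with the FC limit kept it was 5 at D0, and 3 between the controls of D28 and D0. Leaving out 1 array gave 0 to 3 DEGs at D0 and 0 to 1 at D28. The median log2 FC of the members stayed between 0.0512 and 0.116 at D0 and between 0.0331 and 0.135 at D28, and without 1 array between 0.0537 and 0.137 and between 0.0126 and 0.13. Whether the replicate numbers pair the rats was not settled. Of 33 pairs sharing a number, 12 correlated above 0.1 (range -0.301 to 0.455), but pairs of unlike number were not compared. With the replicate number as a block the counts were 1 (Clec9a) and 0, with Clec1b at an adjusted p of 0.0572. With the slide as a block they were 2 and 1. The count for the difference between days was 0 under every alternative tried.

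The sign of small effects turned in some settings. Clec4e at D0 read -0.0012 with the median signal, -0.0036 with the deposited table, -0.0071 with the slide block and -0.00043 with the replicate block. Without 1 array it read between -0.136 and 0.403. Syk at D28 read -0.0081 with array quality weights. Fcer1g at D28 read between -0.221 and 0.0535 without 1 array. Exposed D0 rat 4 was the highest of its group for Clec9a (6.51), Clec4a (7.01), Clec7a (11.66) and Fcgr3a (12.10). It was the lowest for Clec1b (7.95), Clec1a (9.19) and Clec4e (3.71), and at neither end for others, such as Clec5a (6.98). Without D0 control 6, exposed D0 rat 1 or exposed D0 rat 4, neither Clec9a nor Clec1b was called. The cause of these changes was not tested. The signal over background limits Clec2e, Clec2l, Clec4g, Clec4m and probe 1 of Clec9a.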
